A study of Mus musculus with 4 samples.

Results

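The genes described here are 10 homeobox transcription factors that mark position in the developing mouse forebrain: Pax6, Emx1, Emx2, Lhx2 and Otx1 on the dorsal, cortical side, Dlx1, Dlx2, Gsx2 and Nkx2-1 on the ventral side, and Gbx2, best known from the boundary of midbrain and hindbrain. They were taken by their annotated symbols, which gave 13 of the 45259 probes on the array and 10 of its 19057 named genes. A homeobox gene encodes a DNA-binding homeodomain protein, and in the telencephalon combinations of these proteins set regional fate. Pax6 and the Emx proteins act in the progenitors of the cortex, Gsx2 and the Dlx proteins in the lateral and medial ganglionic eminences that give rise to GABAergic neurons, and Nkx2-1 in the medial eminence. Cortical and ganglionic progenitors are kept apart in part by mutual repression between Pax6 and Gsx2. Developmental homeobox genes are also textbook targets of polycomb repression, the process in which Bmi1 takes part.

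Total RNA of neural stem/progenitor cells (NSPC) was hybridised to Illumina bead arrays. The cells came from the neocortex of conditional Cre/LoxP transgenic mice, strain C57BL/6. The cells formed neurospheres, floating clusters of dividing progenitors, in B-27 medium that contained 20 ng/ml of EGF and 20 ng/ml of FGF2, and were harvested at day 5. There were 2 groups of 2 replicates, with 1 array each: Bmi1-overexpressing cells and transgenic control cells. Bmi1 belongs to polycomb repressive complex 1. The labels do not name the driver of Cre, the age of the animals or the alleles of the controls, nor do they say which animals or cultures the replicates came from, so the tests measure the spread between these samples.

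Between 16495 and 18242 probes were detected per array, with the fewest on Bmi1 array 2. The scanner table and the processed table disagree on which arrays are which: every column filed under 1 group in the processed table matched an array headed as the other group in the scanner table (Spearman correlation across probes of 1.00 after rounding, and at most 0.899 with any other array). Groups below follow the scanner headers, so the direction of every difference is unsettled and turns if the processed table is right. Both Bmi1 columns carry the same header, and their numbers only name them. The Bmi1 probe does not settle the names, with signals of 53.3 and 77.7 on the Bmi1 arrays and 79.4 and 62.7 on the control arrays. Control array 1 also stands apart in sex-linked transcripts, with signals of 115 to 971 over 4 Xist probes, against at most 8.4 on the other 3 arrays. The brighter probe of the Y-linked gene Eif2s3y read -1.8 on control array 1, 239.6 and 228.5 on the Bmi1 arrays and 204.6 on control array 2. This is the pattern of female cells on control array 1 and of male cells on the other 3, and the fit does not adjust for sex. The differences of the detected homeobox genes are therefore also given without control array 1. This leaves 1 control array, so the control group then has no replicate.

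Of the 10 homeobox genes, 4 gave a signal above background: Otx1, Gbx2, Lhx2 and Dlx1, each through its single probe and on all 4 arrays. A probe counted as detected on an array when its detection p-value was under 0.05, and the lowest signal that met this was 7.8 and 9.0 on the Bmi1 arrays and 7.7 on both control arrays. The other 6 genes, Pax6, Emx1, Emx2, Dlx2, Gsx2 and Nkx2-1, were detected on none of the arrays by any of their 9 probes. A probe not above background sets only a bound, so no fold is given for these 6, and where the probes lie in their transcripts was not analysed here. In bulk RNA, fewer cells of a type and less RNA per cell cannot be told apart.

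Among the dorsal genes, neither probe of Pax6, the paired-domain factor of cortical radial glia, was detected. Its first probe read -2.3 and -1.1 on the Bmi1 arrays and 0.6 and -2.2 on the control arrays. Its second read 0.1 and -5.8 on the Bmi1 arrays and -7.6 and -1.0 on the control arrays. Values of both groups lie on either side of 0 or below it, not above background. Emx1, a factor of dorsal telencephalic progenitors and their neurons, read -3.0 and -6.0 on the Bmi1 arrays and 1.2 and 0.7 on the control arrays. The Bmi1 arrays are the lower ones for Emx1, but all 4 signals are below detection, with detection p-values of 0.375 to 0.918. Emx2, which also patterns the cortex along its area map, read 3.9 and 1.8 on the Bmi1 arrays and 1.9 and 1.0 on the control arrays, with a lowest detection p-value of 0.192.

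Of the 4 ventral genes, 3 were below detection. Gsx2, the progenitor factor of the lateral ganglionic eminence, read -7.9 and -6.6 on the Bmi1 arrays and -7.1 and -3.7 on the control arrays, below 0 throughout. The 2 probes of Dlx2 read between -6.2 and 1.6 on the Bmi1 arrays and between -1.5 and 2.1 on the control arrays. Nkx2-1, which specifies the medial eminence, came nearest to the detection limit. Its first probe read 4.6 and 2.5 on the Bmi1 arrays and 7.7 and -7.2 on the control arrays, and the 7.7 on control array 1 had a detection p-value of 0.0502, just outside the threshold. Just inside it lay Dlx1 on the Bmi1 arrays, at detection p-values of 0.0288 and 0.0385. The second Nkx2-1 probe read -2.7 and -1.9 on the Bmi1 arrays and -3.6 and 0.4 on the control arrays.

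**Figure D1:**
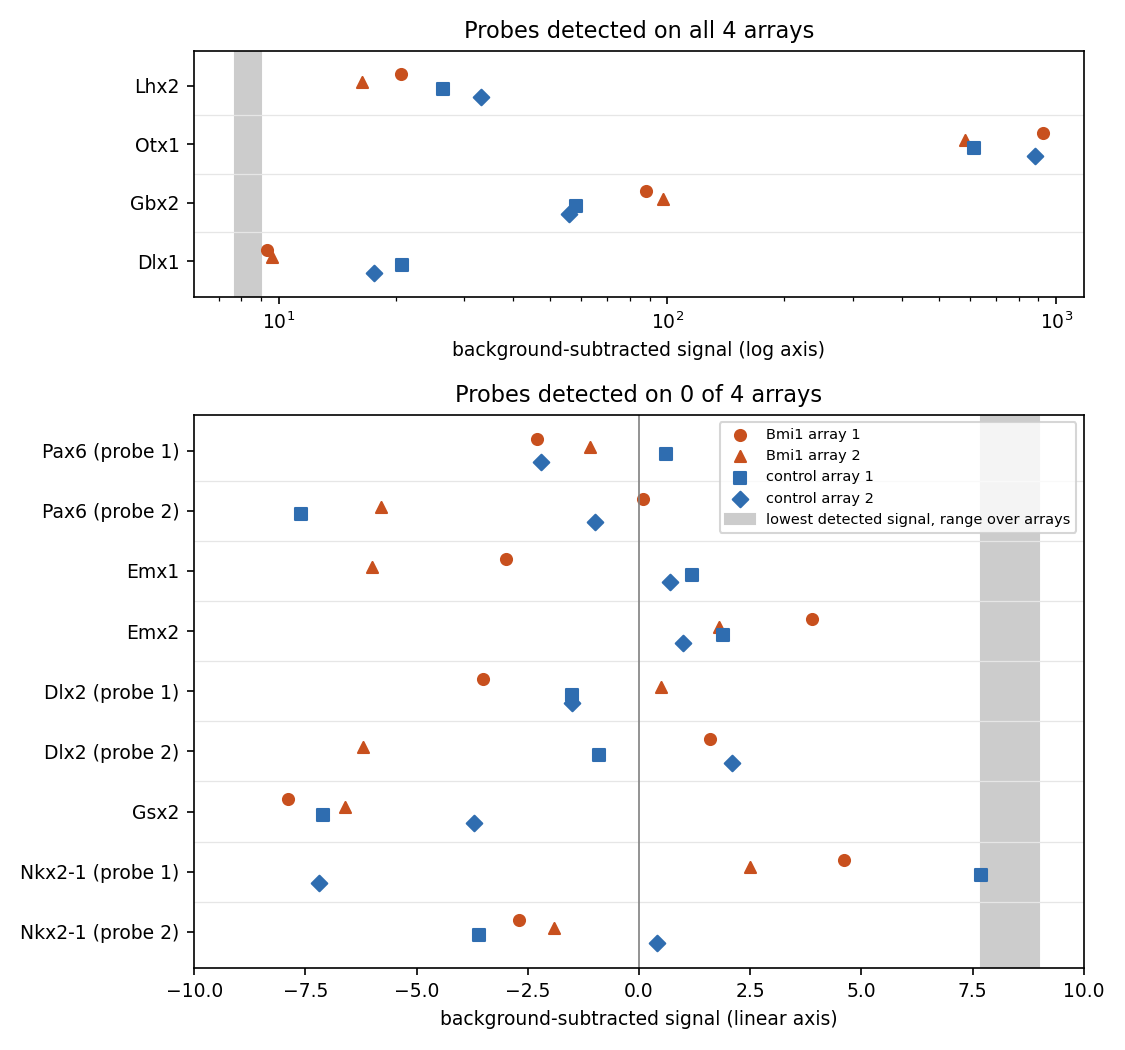
Background-subtracted signal of every probe of the 10 genes on each array, on a log axis for the 4 probes detected on all arrays (top) and on a linear axis for the 9 detected on none (bottom); the grey band spans the lowest detected signal of the arrays, 7.7 to 9.0. Gbx2 has both Bmi1 arrays above both control arrays, Lhx2 and Dlx1 have them below, and the Otx1 arrays interleave.

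The 4 detected genes were compared between groups in a fit over 12809 features, a feature being the brightest detected probe of a gene or a detected probe without a single gene name. Values are normalized log2 signals, differences are Bmi1 minus control, and p-values are from limma with Benjamini-Hochberg adjustment over all features. None of the 4 passed at an adjusted p of 0.05, a call that 0% of all features met. At an unadjusted p under 0.05 the count was 1 of 4, Gbx2, against 22.0% of all features (2817). By direction the counts were 1 of 4 higher, against 12.2% of features, and 0 of 4 lower, against 9.76%. With 4 genes measured, these counts are near the background. The higher share of the 2817 features was 55.6%, and it was 16.9% with median scaling, 72.1% with median scaling over the probes detected on all arrays, and 44.8% in the processed table with its own column names.

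Gbx2, which holds the hindbrain side of the midbrain-hindbrain boundary against Otx2 and also acts in the thalamus and the ventral telencephalon, had signals of 88.3 and 97.2 on the Bmi1 arrays and 58.3 and 55.7 on the control arrays. Both Bmi1 arrays lie above both control arrays. After normalization it stood at 6.95 ± 0.29 on the log2 scale in Bmi1 cells and 6.04 ± 0.09 in control cells (SD, n = 2 each). The log2 difference was 0.91 (SE 0.22, 95% interval 0.39 to 1.43), a 1.88-fold level in Bmi1 cells. The unadjusted p of the limma fit was 0.00423 and the adjusted p 0.133. Of all features, 3.10% had a smaller p and 5.36% a larger difference in either direction. Without control array 1, with 1 control array left, the difference was 0.96.

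Otx1, a homeodomain factor of cortical progenitors and later of deep-layer neurons, had signals of 926.6 and 583.3 on the Bmi1 arrays and 613.0 and 883.1 on the control arrays. The arrays of the groups interleave, with the highest and the lowest signal both among the Bmi1 arrays. It stood at 9.68 ± 0.30 on the log2 scale in Bmi1 cells and 9.44 ± 0.34 in control cells (SD, n = 2 each), a log2 difference of 0.24 (SE 0.25, 95% interval -0.36 to 0.84, limma adjusted p = 0.621). The difference is smaller than the spread between replicates. The value hung on single arrays: 0.03 without Bmi1 array 1, 0.44 without Bmi1 array 2, 0.00 without control array 1, and 0.49 without control array 2.

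Lhx2, a LIM-homeodomain selector of cortical identity, had signals of 20.6 and 16.4 on the Bmi1 arrays and 26.4 and 33.1 on the control arrays. The Bmi1 arrays are the lower ones and do not overlap with the control arrays. Its log2 level was 5.20 ± 0.03 in Bmi1 cells and 5.40 ± 0.09 in control cells (SD, n = 2 each), with a log2 difference of -0.20 (SE 0.19, 95% interval -0.65 to 0.25, limma adjusted p = 0.582). Leaving out control array 1 gave -0.26. Leaving out control array 2 gave -0.13, a change of over 1.5 times.

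Dlx1, a distal-less factor that drives interneuron differentiation in the ganglionic eminences, had signals of 9.3 and 9.6 on the Bmi1 arrays and 20.7 and 17.6 on the control arrays. Both Bmi1 signals lie just above the detection limit and below both control signals. Its log2 level was 4.71 ± 0.04 in Bmi1 cells and 5.06 ± 0.12 in control cells (SD, n = 2 each), a log2 difference of -0.35 (SE 0.20, 95% interval -0.81 to 0.11, limma adjusted p = 0.343), and -0.26 without control array 1. The ratio of mean signals before normalization, Bmi1 over control, was 0.493 for Dlx1, 0.622 for Lhx2, 1.63 for Gbx2 and 1.01 for Otx1, and the fold after normalization was 0.784, 0.870, 1.88 and 1.18 in the same order. Normalization thus brought Dlx1 and Lhx2 nearer to 1 and moved Gbx2 and Otx1 away from it. It includes an added constant of 16 before log2, close to the signals of Dlx1 and Lhx2, so their folds depend on that choice. With a constant of 50 the log2 difference was -0.16 for Dlx1, -0.11 for Lhx2, 0.66 for Gbx2 and 0.23 for Otx1.

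**Figure D2:**
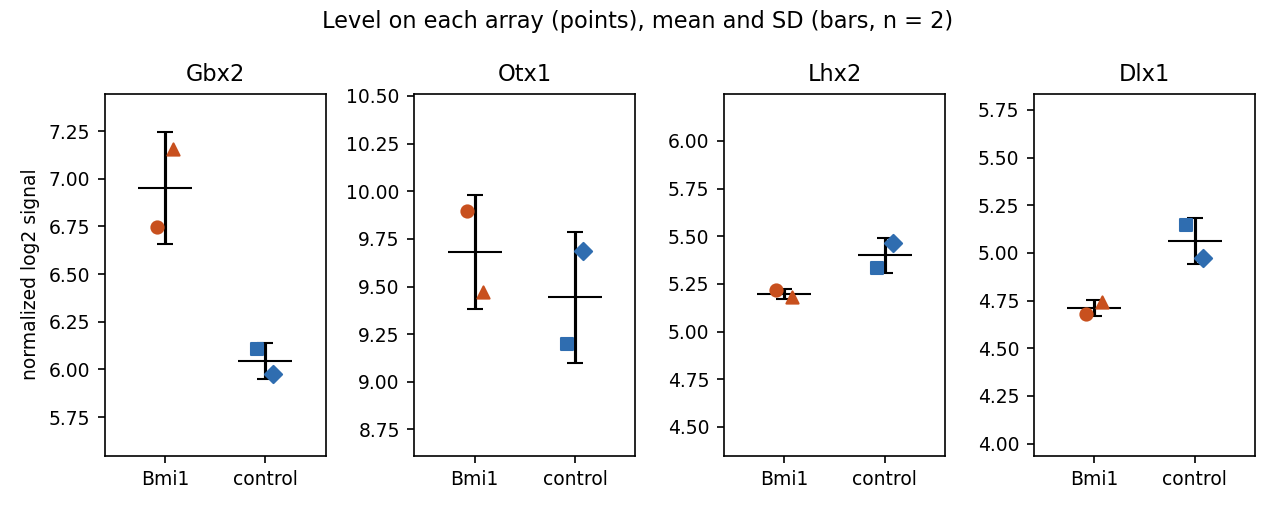
Normalized log2 signal of the 4 detected genes on each array, with Bmi1 cells on the left and control cells on the right of each panel (circle and triangle, Bmi1 arrays 1 and 2; square and diamond, control arrays 1 and 2; long bars, mean; error bars, SD, n = 2). Each panel spans the same range of log2 units, so Gbx2 shows the widest gap, 0.91, and Otx1 the widest spread within groups.

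Of these 4 genes, 3 had groups that did not overlap: Gbx2 with the Bmi1 arrays above, and Lhx2 and Dlx1 with them below. Of all features 54.8% did not overlap, 28.6% with the Bmi1 arrays above and 26.2% with them below, so 3 of 4 is no count that sets these genes apart. The median log2 difference of the 4 was 0.02, and that of all features 0.01. The 4 therefore share no direction.

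**Figure D3:**
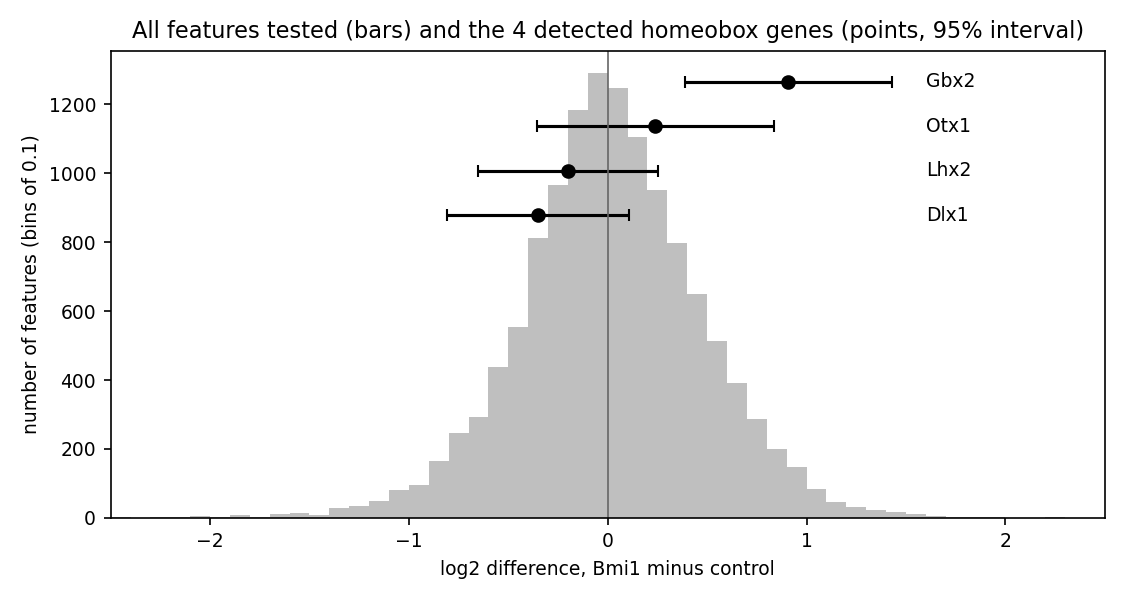
Distribution of the log2 difference, Bmi1 minus control, over the 12809 features (bars, bins of 0.1) with the 4 detected homeobox genes as points and their 95% intervals, placed at arbitrary heights. The interval of Gbx2, 0.39 to 1.43, lies above 0, and those of Otx1, Lhx2 and Dlx1 include 0.

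Promoter windows of 300 bases (250 before and 50 after the start; RefSeq, GRCm38.p6) were given for 9 of the 10 genes, 11 windows in all. Otx1, a detected gene, had no window. CpG dinucleotides, which mark the CpG islands where polycomb complexes are known to bind, numbered 12 to 37 per window, with a median of 27. The median over all 32851 windows was 7, and all 11 windows lay above it, as 48.65% of all windows did. The windows of the detected genes held 27 CpG for Gbx2, 27 for Dlx1, and 34 and 29 for Lhx2. Those of the undetected genes held 37 for Emx1, 29 for Dlx2, 26 for Emx2, 18 and 16 for Pax6, 17 for Gsx2 and 12 for Nkx2-1. Most undetected windows thus lie below the detected ones, with Emx1 and Dlx2 as exceptions and Otx1 missing, and the difference was not tested. Shown are Gbx2 and Dlx1, the detected genes with the largest positive and negative difference, and Dlx2, the undetected neighbour of Dlx1, with each CpG in capitals. They lie at chr1:89931127-89931426 on the minus strand, chr2:71529195-71529494 on the plus strand and chr2:71546705-71547004 on the minus strand.
Gbx2: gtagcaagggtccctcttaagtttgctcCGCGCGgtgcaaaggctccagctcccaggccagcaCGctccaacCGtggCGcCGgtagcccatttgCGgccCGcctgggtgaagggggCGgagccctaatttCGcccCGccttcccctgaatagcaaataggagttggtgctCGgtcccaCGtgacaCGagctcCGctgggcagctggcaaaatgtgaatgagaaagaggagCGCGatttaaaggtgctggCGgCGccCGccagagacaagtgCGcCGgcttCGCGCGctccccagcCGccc
Dlx1: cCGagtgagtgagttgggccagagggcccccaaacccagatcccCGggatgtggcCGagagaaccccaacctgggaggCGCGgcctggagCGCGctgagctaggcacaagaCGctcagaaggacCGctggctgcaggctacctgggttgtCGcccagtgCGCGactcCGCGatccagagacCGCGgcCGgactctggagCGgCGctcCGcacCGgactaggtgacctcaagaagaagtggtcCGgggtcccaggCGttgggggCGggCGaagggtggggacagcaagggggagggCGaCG
Dlx2: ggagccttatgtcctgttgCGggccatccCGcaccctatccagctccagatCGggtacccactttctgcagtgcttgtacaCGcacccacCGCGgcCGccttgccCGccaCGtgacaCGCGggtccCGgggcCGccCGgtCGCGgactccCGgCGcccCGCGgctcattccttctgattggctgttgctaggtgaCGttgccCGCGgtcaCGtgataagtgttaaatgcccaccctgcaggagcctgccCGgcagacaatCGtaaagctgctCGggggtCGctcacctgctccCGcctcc
The palindromic E-box CACGTG occurs in the windows of Gbx2, Dlx2 and Gsx2, and in 7.15% of all windows. The homeodomain core TAATTA occurs in that of Emx2 alone among the 11, and in 5.29% of all windows. Both motifs read the same on either strand. A match describes letters in a window and shows no binding.

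Dlx1 and Dlx2 are next to each other on chromosome 2 with no coding gene between them, in opposite orientation, and share enhancers in the embryo, where they are usually expressed together. Here Dlx1 was detected and Dlx2 was not. Dlx1as, an antisense transcript that overlaps Dlx1, had its own probe, with signals of 5.2 and 0.6 on the Bmi1 arrays and 2.0 and 3.7 on the control arrays, detected on none.

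Paralogs of the 10 genes gave similar counts. Of 13 paralogs with a probe, 8 were detected on no array (Gbx1, Dlx3, Dlx4, Dlx5, Dlx6, Nkx2-4, Pax4 and Vax2), 3 were detected on all arrays, and 4 entered the test, where 0 passed. Nkx2-2, which in the forebrain marks ventral progenitors and oligodendrocyte precursors, had signals of 670.3 and 423.3 on the Bmi1 arrays and 1517.7 and 1348.0 on the control arrays, with a log2 difference of -1.16 (SE 0.22, limma adjusted p = 0.133). The Bmi1 arrays are clearly the lower ones. Gsx1, the close relative of Gsx2, was detected on all arrays, at 42.9 and 17.0 on the Bmi1 arrays and 14.0 and 20.6 on the control arrays. Its signals overlap between groups, its normalized values do not, and its log2 difference was 0.59 (SE 0.27, limma adjusted p = 0.253). The tested probe of Vax1, a factor of the ventral forebrain and optic stalk, read 13.7 and 12.3 on the Bmi1 arrays and 4.7 and 5.7 on the control arrays, where it was not detected. The other Vax1 probes were detected on no array.

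Otx2, the partner that opposes Gbx2 at the midbrain-hindbrain boundary and a factor of forebrain and midbrain, was named after its values were seen. It had signals of 125.2 and 100.3 on the Bmi1 arrays and 160.0 and 165.1 on the control arrays. The Bmi1 arrays are the lower ones, the reverse of Gbx2. The log2 difference of Otx2 was -0.13 (SE 0.19, limma adjusted p = 0.736), smaller than its standard error.

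**Figure D4:**
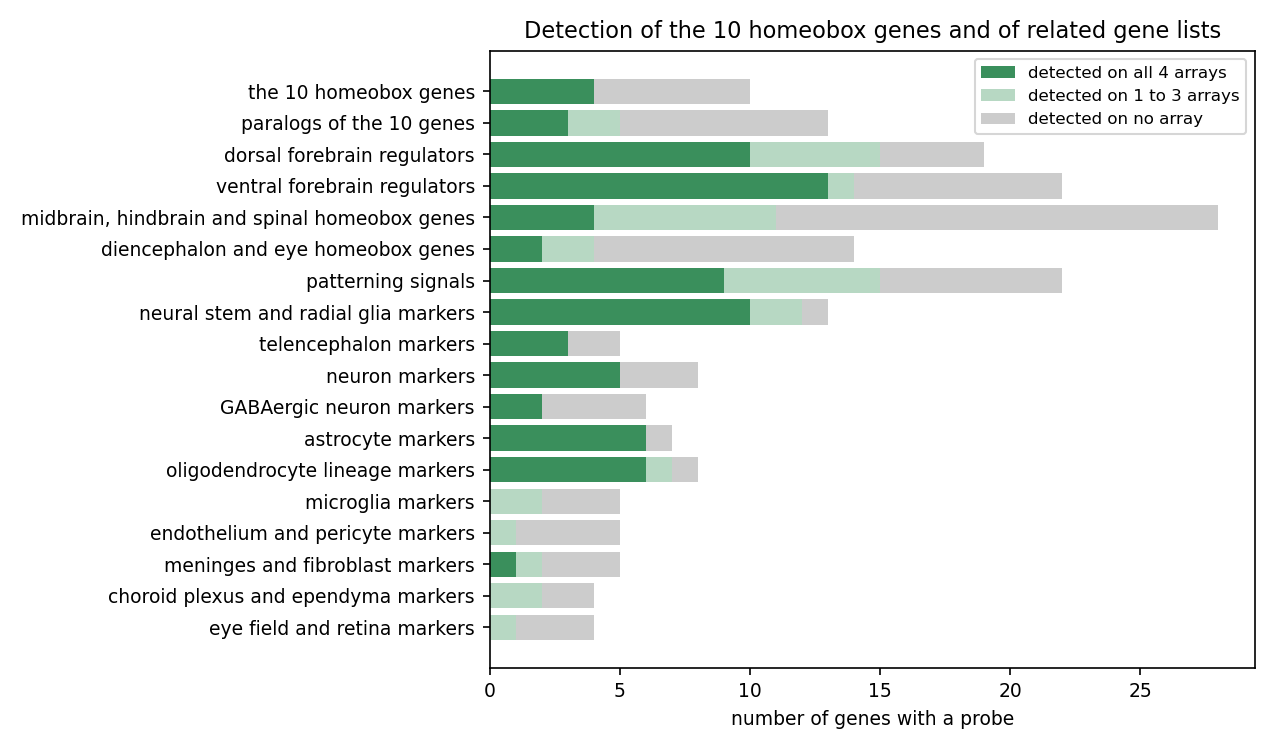
Number of genes with a probe in each list, split by detection on all 4 arrays, on 1 to 3 arrays, or on no array. The 10 homeobox genes split into 4 and 6, and the neural stem and radial glia markers into 10 detected on all arrays, 2 on some and 1, Pax6, on none.

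Of other regulators of dorsal and ventral fate, 0 passed at an adjusted p of 0.05 over all features. Of 24 dorsal regulators, 19 had a probe and 11 were tested, 7 with a positive and 4 with a negative difference and a median of 0.14. The median was -0.14 with median scaling, 0.01 without control array 1 and 0.27 without control array 2. At an unadjusted p under 0.05, 2 of 11 were higher and 1 lower in Bmi1 cells, near the 12.2% and 9.76% of all features. Cux1, an upper-layer homeodomain factor, had a log2 difference of -0.83 (SE 0.21), Bcl11b, a deep-layer zinc finger factor, 0.92 (SE 0.23), and Zic1, a zinc finger factor of the dorsal midline, 0.62 (SE 0.26), with limma adjusted p-values of 0.133, 0.134 and 0.215. The probes of Bcl11b disagree: the tested one read 105.0 and 118.4 on the Bmi1 arrays and 58.9 and 79.8 on the control arrays, and another detected one 40.7 and 30.6 against 55.6 and 60.2. Those of Cux1 differ too: the tested one read 215.5 and 177.0 on the Bmi1 arrays and 497.0 and 413.3 on the control arrays. Another detected on all arrays read 14.9 and 9.7 against 13.1 and 13.9, and 1 detected on the control arrays alone 4.6 and 8.4 against 11.2 and 8.8. The cortical regulators Tbr1 and Eomes were not detected.

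Of 25 ventral regulators, 22 had a probe and 14 were tested, 10 with a positive and 4 with a negative difference and a median of 0.19. The median was 0.00 with median scaling and 0.06 without control array 2. At an unadjusted p under 0.05, 1 of 14 was higher and 2 lower in Bmi1 cells, near those background shares. Besides Nkx2-2, these were Prox1, a homeodomain factor of differentiating progenitors, at 135.8 and 140.5 on the Bmi1 arrays against 77.2 and 85.5 on the control arrays, and Olig2, a factor of ventral progenitors and the oligodendrocyte lineage, at 95.6 and 103.2 against 223.3 and 203.9. Their log2 differences were 1.00 (SE 0.21, limma adjusted p = 0.133) and -0.65 (SE 0.22, limma adjusted p = 0.164). Lhx6 and Lhx8, which act below Nkx2-1 in the medial eminence, and Isl1 were not detected.

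Homeobox genes of the midbrain, hindbrain and spinal cord, which mark other positions along the axis, were mostly below detection. Of 28 with a probe, 17 were detected on no array and 4 on all, and 8 were tested with a median of -0.08. The median turned with single arrays left out, to 0.17 without Bmi1 array 2 and 0.12 without control array 1. The boundary gene En2 read 27.6 and 47.4 on the Bmi1 arrays and 35.3 and 29.6 on the control arrays, with groups that overlap. Evx1 read 12.4 and 20.9 on the Bmi1 arrays and 7.5 and 7.3 on the control arrays, where it was not detected. Hoxa4, detected on 3 of the 4 arrays, stood at a log2 difference of 0.40 (SE 0.22, limma adjusted p = 0.340). Of 14 diencephalic and eye genes with a probe, 10 were detected on no array. The 3 tested had a median of -0.22, which was 0.06 without Bmi1 array 2 and 0.02 without control array 1, and were Vax1, Six3 at -0.22 (SE 0.24, limma adjusted p = 0.632) and Irx3 at -0.23 (SE 0.25, limma adjusted p = 0.636).

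The signals that set these domains in the embryo were also compared. Shh, the ventral morphogen, and Wnt3a and Wnt8b of the cortical hem were not detected. Of 22 patterning genes 14 were tested, 5 with a positive and 9 with a negative difference and a median of -0.28. The median ranged from -0.54 to -0.05 over the other settings on the scanner table. At an unadjusted p under 0.05, 1 of 14 was lower in Bmi1 cells, against 9.76% of features: Bmp4, the dorsal midline ligand. Bmp4 read 20.4 and 2.0 on the Bmi1 arrays and 215.6 and 50.3 on the control arrays, a log2 difference of -2.02 (SE 0.57, limma adjusted p = 0.140). The 2.0 on Bmi1 array 2 is not above background, so the size of this difference rests in part on an unmeasured level. Nog, a BMP antagonist, read 7.2 and 2.0 on the Bmi1 arrays, where it was not detected, and 19.0 and 13.3 on the control arrays. The tested probe of Fgfr3 read 47.0 and 69.8 on the Bmi1 arrays and 189.0 and 103.5 on the control arrays. Its log2 difference was -0.74 (SE 0.35, limma adjusted p = 0.264). Its normalized values overlap between groups, at 6.02 and 6.75 on the Bmi1 arrays and 7.55 and 6.70 on the control arrays.

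The labelled cell type was checked against its markers. Of 13 neural stem and radial glia markers, 10 were detected on all arrays, with nestin (Nes) at 637.8 and 708.2 on the Bmi1 arrays and 519.2 and 620.6 on the control arrays and Sox2 at 586.6 and 371.5 against 379.8 and 995.2. Pax6 was the marker detected on none. The regional label was less well covered: of the 5 telencephalic markers with a probe, Lhx2, Otx1 and Six3 were detected and Emx1 and Emx2 were not. Of the stem and radial glia markers 11 were tested, 6 with a positive and 5 with a negative difference and a median of 0.22. The median was 0.03 with median scaling and 0.02 without control array 1. At an unadjusted p under 0.05, 2 of the 11 were higher, against 12.2% of features, and 0 lower, against 9.76%. The 2 were Notch1 at 1.00 (SE 0.21) and Tnc at 0.69 (SE 0.25). Slc1a3 and Sox9, not among the astrocyte markers below, stood at 0.33 (SE 0.21) and 0.36 (SE 0.28).

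Markers of other cell types were compared in the same fit, and 0 of them passed at an adjusted p of 0.05. The summed signal of 7 astrocyte markers was 8594.5 and 7477.3 on the Bmi1 arrays and 13518.3 and 13975.3 on the control arrays, with 6 of 6 tested at a negative difference (median -0.67), against 6293 of the 12809 features, and S100b not detected. At an unadjusted p under 0.05, 4 of the 6 were lower, against 9.76% of features. Gfap, the astrocyte filament protein, read 328.1 and 49.2 on the Bmi1 arrays and 874.7 and 1618.8 on the control arrays, a log2 difference of -2.74 (SE 0.63, limma adjusted p = 0.133). The summed signal of 8 oligodendrocyte lineage markers was 17487.9 and 15072.5 on the Bmi1 arrays and 20129.6 and 16913.4 on the control arrays, with 4 of 7 tested at a negative difference and Mog not detected. Olig1 made up most of these sums, at 14464.3 and 13412.6 on the Bmi1 arrays and 14016.2 and 13941.6 on the control arrays. At an unadjusted p under 0.05, 3 of the 7 were lower, against 9.76% of features, and 0 higher, against 12.2%. After normalization 3 of the 7 had both Bmi1 arrays above both control arrays and 3 had them below, against 28.6% and 26.2% of features. The tested probe of the myelin gene Mbp read 107.2 and 26.6 on the Bmi1 arrays and 2872.7 and 515.7 on the control arrays, a log2 difference of -3.84 (SE 0.77, limma adjusted p = 0.133). The size depends on the probe. Another one detected on all arrays read 73.5 and 27.5 on the Bmi1 arrays and 84.2 and 66.1 on the control arrays. One detected on the control arrays alone read 4.8 and 3.5 against 72.1 and 18.2. Mag, another myelin gene, read 11.7 and 4.3 on the Bmi1 arrays, the second not above background, and 206.6 and 42.4 on the control arrays. For 8 neuron markers the sums were 2933.0 and 1816.1 on the Bmi1 arrays and 3536.6 and 3318.9 on the control arrays, 3 of 5 tested had a negative difference, and Tubb3, Snap25 and Stmn2 were not detected. Map2 made up most of the neuron sums, with 2229.8 and 1461.0 on the Bmi1 arrays and 2186.5 and 2291.0 on the control arrays. Its groups overlap, and its log2 difference was -0.12 (SE 0.22, limma adjusted p = 0.803). For 6 GABAergic markers the sums were 131.0 and 89.8 on the Bmi1 arrays and 157.4 and 168.7 on the control arrays. Gad1 and Npy were the 2 tested, and Gad2, Slc32a1, Lhx6 and Sst were not detected. The astrocyte, neuron and GABAergic sums are lower on both Bmi1 arrays than on both control arrays, while the oligodendrocyte sums overlap. The tested probes of Mbp, Mag, Dlx1, Lhx2 and Nkx2-2 are lower there too. These signals are not normalized, and the mean over all probes was also lower on the Bmi1 arrays, at 214.8 and 190.9 against 227.9 and 233.3. After normalization Gad1 stood at a log2 difference of 0.09 (SE 0.19) and Npy at -0.74 (SE 0.33), and 2 of the 5 neuron markers had a positive difference. The part of these cell types in the differences of Dlx1, Lhx2 and Nkx2-2 was not tested.

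Microglial, endothelial, choroid plexus and eye markers were at or near background on all arrays, with summed signals of at most 27.8, 16.6, 23.8 and 18.9. Among the microglial markers, the tested probes of Aif1 and Csf1r were detected on the Bmi1 arrays alone. Aif1 read 13.4 and 11.8 on the Bmi1 arrays and 3.3 and 5.8 on the control arrays, and Csf1r 10.1 and 14.3 against 7.0 and 5.5. Another Aif1 probe, detected on 1 array, read 7.4 and 5.1 on the Bmi1 arrays and 8.1 and 6.9 on the control arrays. The remaining probes of both genes were detected on no array. Of the 5 meningeal and fibroblast markers, Pdgfra, which oligodendrocyte precursors also express, was the only 1 detected on all arrays.

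**Figure D5:**
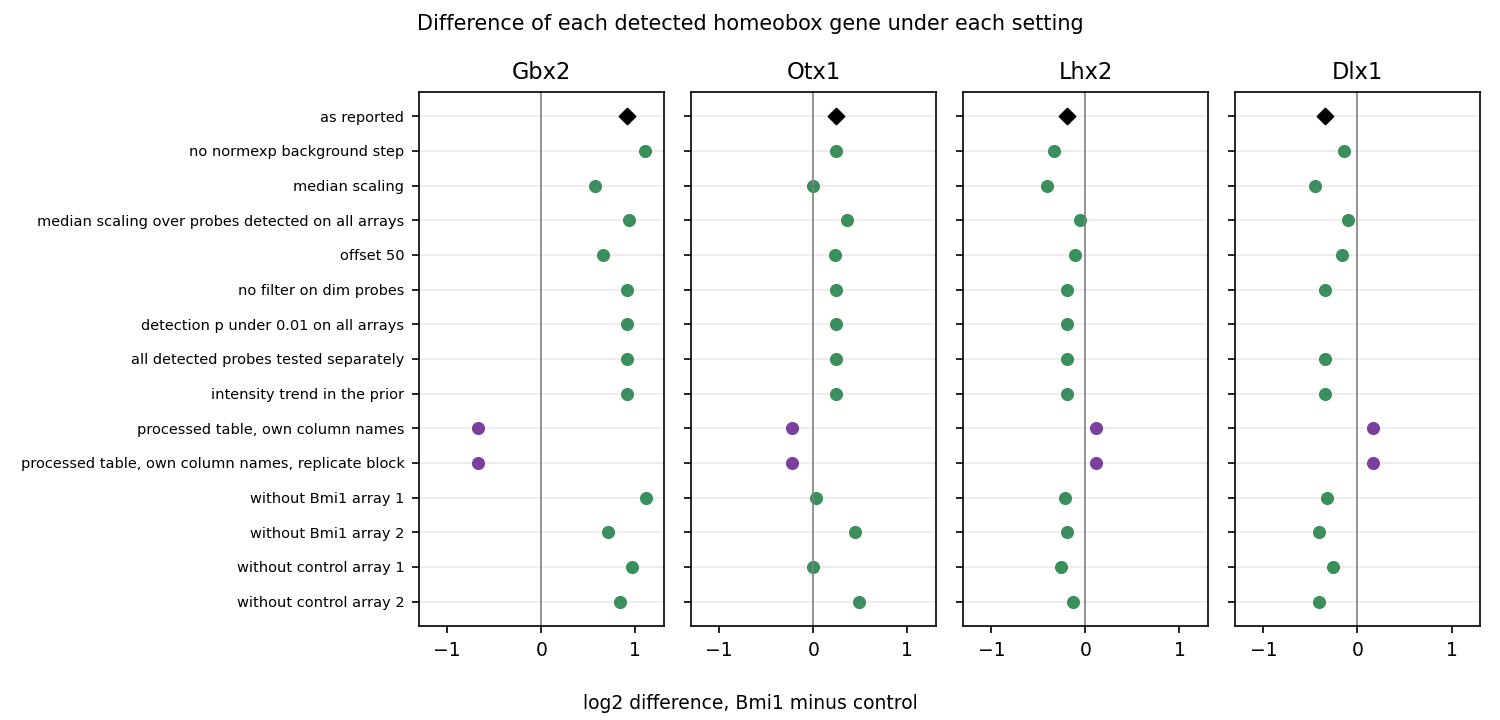
Log2 difference, Bmi1 minus control, of the 4 detected genes under each setting (diamond, as reported; green, other settings on the scanner table; purple, processed table with its own column names). Signs hold in all scanner-table settings that could be run, Otx1 falls to 0.00 in 2 of them, and all 4 signs turn in the processed table.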

How the data were processed

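The 4 arrays were deposited as scanner output and, separately, as processed values. In the scanner output each probe has an intensity and a detection p-value, per the file headers; 22 rows without a probe identifier were left out. The deposited intensity values are background-subtracted, with 31.2 to 33.9% at or below 0. The deposited p-value column increases with the signal (Spearman 0.980 to 0.987) and was read as 1 minus p. The processed table holds log2 values that the authors made with lumi, per the submitters' processing notes, at a version not given in the sources used here.

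Signals were normalized with neqc of limma 3.58.1 (R 4.3.3; normexp background from the detection p-values, offset 16, quantiles, log2). Probes with a detection p under 0.05 on at least 2 of 4 arrays were kept (18237), and the brightest probe stood for a gene. Gene names come from the platform annotation, with symbols updated by gene identifier: 34872 probes had 1 symbol, 18 several and 10369 none. Groups were compared with lmFit and eBayes, two-sided, with Benjamini-Hochberg adjustment and 7.23 total degrees of freedom. The fit was tested on simulated data.

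The genes and lists were chosen with earlier results of these data known. Named besides them are up to 3 genes per forebrain list with the smallest unadjusted p, defining markers and Bmi1. Xist, Eif2s3y, Otx2, Dlx1as, Notch1, Tnc, Slc1a3, Sox9, Map2 and undetected genes of the lists were named after their values were seen. Alternatives were other background, scaling, offset, filter, probe, variance and table choices and leaving out each array. The scanner output names neither slides nor scan dates, and batches were not tested. With 4 arrays no correlation across arrays was computed, and the number of arrays limits the precision.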

Additional observations from a re-analysis of the deposited data

How the results depend on the processing

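Signs of the 4 detected genes were the same in every alternative on the scanner table that could be run, and none of the 4 passed in any. Gbx2 ranged from 0.58 (median scaling) to 1.11 (without Bmi1 array 1). With all 4 arrays its limma adjusted p-values were 0.0807 (median scaling over the probes detected on all arrays) to 0.256 (no filter on dim probes). Dlx1 ranged from -0.45 to -0.10 and was left out by the filter at a detection p of 0.01, Lhx2 ranged from -0.41 to -0.05, and Otx1 from 0.00 to 0.49. In the processed table with its own column names the signs reversed, to -0.67 for Gbx2, -0.23 for Otx1, 0.11 for Lhx2 and 0.17 for Dlx1, with the same values under the replicate block, which rests on shared replicate numbers only (correlation of deviations -0.20). The block gave 2535 features at an unadjusted p under 0.05, against 2840 without it. The number of features past the adjusted threshold was 0 to 5 and past the unadjusted one 1082 to 3525 with arrays left out (5 without control array 2, 1082 without control array 1, 1401 without Bmi1 array 2), against 0 and 2817 on all arrays. Median scaling moved the median of all features to -0.20 over all probes and to 0.16 over the probes detected on all arrays, the last chosen after seeing the data. The share of features at an unadjusted p under 0.05 that were higher in Bmi1 cells was then 16.9% and 72.1%, against 55.6%. On these scales, shifts included, Otx1 stood at 0.00 and 0.35. The median of the tested homeobox genes was -0.20 with median scaling and 0.24 with the stricter filter, which leaves out Dlx1, against 0.02 as reported. The cause was not tested otherwise. For 6 genes below background, only signals can be given.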
